A study of Homo sapiens with 12 samples.

Results

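Positions 1 to 2300 of human 28S rRNA hold 14 of the 141 listed 2'-O-methylation sites of a RiboMeth-seq data set, and 2286 further positions that are not listed as methylated. They were taken by position in the 28S sequence of the deposited tables, which is 5069 nt long, and make up 2300 of the 8164 positions measured over 10 RNAs. The other 54 listed sites of 28S lie after position 2300. The 14 sites are Am398, Am400, Gm1316, Am1323, Am1326, Cm1340, Gm1521, Am1523, Am1533, Gm1624, Gm1759, Am1870, Cm1880 and Um2043, where the letter gives the methylated nucleoside and the number its position in that sequence. In the older numbering that the deposited overview also lists, the first of them is 389 and the last 2031.

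All libraries came from HEK293 Flp-In T-Rex, a widely used line from human embryonic kidney in which a transgene can be placed at a prepared site and induced. The 4 groups were untreated wild-type cells (WT), GPATCH4 knockout cells, wild-type cells transfected with siRNA that has no target (siNT) and wild-type cells transfected with siRNA to DHX15 (siDHX15). Each group had 3 replicates, which the labels call biological. How many knockout clones were used, and the dose and duration of the siRNA treatment, are not given in the sources used here. The assay does not measure GPATCH4 or DHX15 transcripts, so neither the knockout nor the knockdown was checked.

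2'-O-methylation is a methyl group on the ribose of a nucleotide, placed on rRNA by the enzyme fibrillarin in box C/D particles. In each particle a small nucleolar RNA (snoRNA) base-pairs with the rRNA and so chooses the nucleotide. DHX15 belongs to the DEAH-box helicases, which remodel RNA and RNA-protein particles, and proteins with a G-patch motif such as GPATCH4 bind and stimulate helicases of this kind. The 5' part of 28S folds into the first domains of the large subunit, and in humans it carries long insertions rich in G and C, called expansion segments, of which ES7 is the largest.

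RiboMeth-seq cuts RNA partially with alkali, and a 2'-O-methyl group protects the bond that follows it. Few read ends therefore fall at a methylated position. The RMS score compares it with its neighbours and gives this depletion as a fraction, from 0 where the position has at least as many read ends as its neighbours to 1 where it has none. The neighbours are 6 positions on each side.

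The 28S rRNA is a non-coding RNA without introns, made from many gene copies in tandem arrays. RefSeq's annotation of GRCh38.p14 lists 5 copies with lengths from 5054 to 5077 nt, among them RNA28SN2 at chr21:8213888-8218941, RNA28SN3 at chr21:8396926-8401980 and RNA28SN1 at chr21:8441146-8446211. None has the length of the sequence in the tables, so positions are given in that sequence and not in the genome.

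The sites lie in 7 short stretches. In the stretches with several sites, each site except Cm1340 shares neighbours with another site of its stretch. Sites of 1 stretch did not always pass the same tests, but whether they respond differently from each other was not tested. The sequences are those of the deposited tables, 5' to 3', with 10 bases on either side of the outer sites, and capitals mark the listed nucleotides.
28S 388 to 410 (Am398, Am400): aacuuugaagAgAgaguucaaga
28S 1306 to 1350 (Gm1316, Am1323, Am1326, Cm1340): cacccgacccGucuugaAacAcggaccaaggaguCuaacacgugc
28S 1511 to 1543 (Gm1521, Am1523, Am1533): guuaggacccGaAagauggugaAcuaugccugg
28S 1614 to 1634 (Gm1624): cuggguauagGggcgaaagac
28S 1749 to 1769 (Gm1759): gaggucuuggGgccgaaacga
28S 1860 to 1890 (Am1870, Cm1880): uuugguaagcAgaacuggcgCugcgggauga
28S 2033 to 2053 (Um2043): gcccugaaaaUggauggcgcu

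The listed nucleotides were 7 A, 4 G, 2 C and 1 U. A made up 50% of the sites but 15.3% of the 2300 positions, whereas in the rest of 28S it made up 25.9% of the sites and 16.1% of the positions. G and C together made up 71.5% of the positions, and between 33.3% and 61.9% of the 21 nt centred on each site. Every one of these windows was thus poorer in G and C than the region as a whole. Compared at the same distance from the site, Gm1316 and Gm1521 shared the 6 letters GACCCG that end at the methylated G, a word found 6 times in the 2300 positions. Am398 and Am400 shared AGAGAG from 2 bases before the site, a word found there 2 times. These sites lie 2 nt apart in a repeat, so the 2 copies overlap each other. Am1323 and Gm1759 shared GUCUUG from 7 bases before the site, also found 2 times.

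Read ends in positions 1 to 2300 numbered 1639928 to 3970038 per library in WT and the knockout. Depth was lower after siRNA, at 407865 to 449279 in siNT and 207824 to 1143962 in siDHX15. In all 12 libraries the region took between 22% and 25% of the read ends, and 3' ends made up 49.7% to 50.1% of those in the region. The neighbour mean, which is the weighted mean of read ends at those 6 positions on each side, ranged over sites and libraries from 57.7, at Am1326 in siDHX15 replicate 1, to 6435, at Gm1759 in the first knockout replicate. The score is a ratio of such counts, so the part of its precision set by counting is lowest at the low depth of siNT and siDHX15. The spread between replicates was not always larger there. At Gm1316 the SD was 0.130 in the knockout and 0.00574 in siNT, whereas at Cm1340 it was 0.122 and 0.147.

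**Figure D1:**
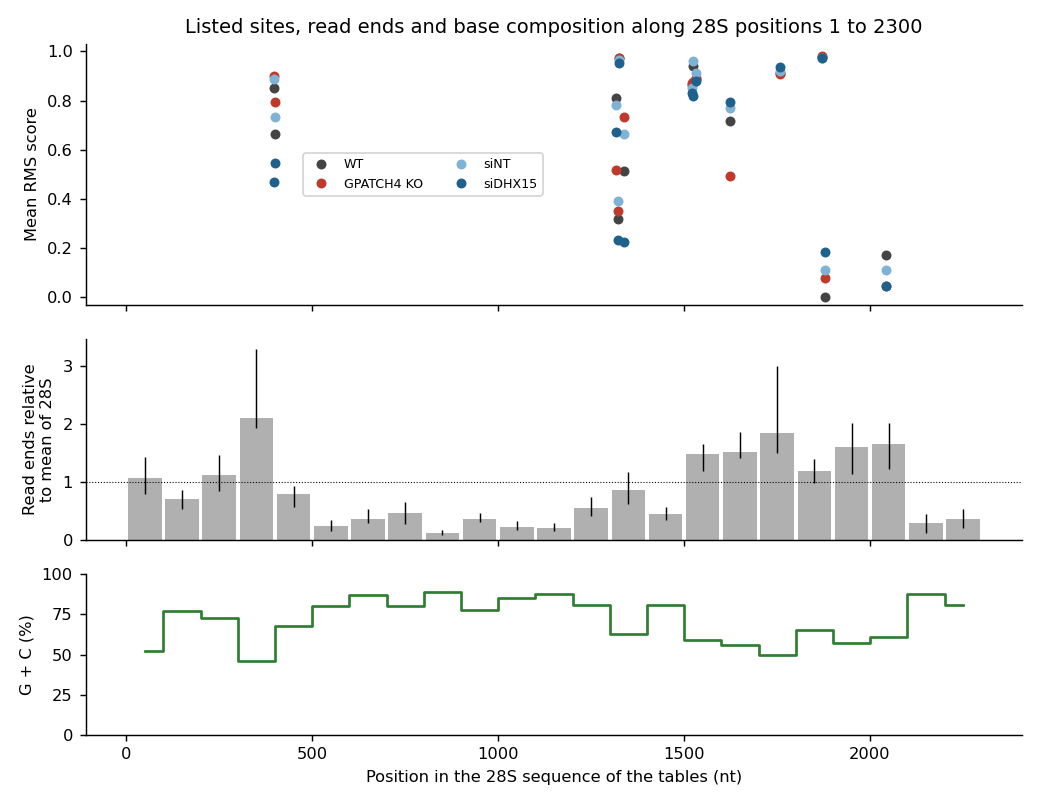
The upper plot gives the mean RMS score (no unit) of the 3 replicates of each group at the 14 listed sites against position in 28S (nt). The middle plot gives read ends per position relative to the mean of 28S in windows of 100 nt, as the median (bar) and range (line) of the 12 libraries, and the lower plot the percentage of G and C. No site is listed from 401 to 1315, where the bars are low and the G + C line is high.

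The listed sites covered the full range of the score in the 6 control libraries, WT and siNT. Am1326, Am1523 and Am1870 scored at least 0.9 in all of these. Am1326 lies in the target of SNORD18, Am1523 in that of SNORD32A and SNORD51, and Am1870 in that of SNORD38, all box C/D snoRNAs. With Am398, Gm1316, Gm1521, Am1533 and Gm1759, 8 of the 14 sites were at 0.75 or more in every control library. Am1323, Cm1880 and Um2043 were below 0.5 in each control library, and in all 12 libraries. Am400, Cm1340 and Gm1624 lay between these 2 sets.

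The highest site by its median over the 12 libraries was Am1870, at 0.978, with a range from 0.952 to 0.989. Am1326 followed at 0.970, from 0.924 to 0.993, so the ranges of these sites overlapped. Gm1759 had a median of 0.920 and ranged from 0.889 to 0.955. Am1533, the target of SNORD77, had a median of 0.894 and a range from 0.860 to 0.925, and Gm1521 had a median of 0.859 and a range from 0.768 to 0.928. At these 5 sites the groups overlapped in both main comparisons, apart from Am1870, where the knockout libraries, at 0.986, 0.979 and 0.981, lay just above the WT libraries, at 0.975, 0.979 and 0.976. That difference was 0.00512 (SE 0.0137) and did not pass the test (adjusted p = 0.934).

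Cm1880, which SNORD48 is known to target, had a score of 0 in every WT library. The position held 3402, 2057 and 2301 read ends in WT, against neighbour means of 2157, 1594 and 2275, and so had more read ends than its neighbours. Most of these, 86.6% in WT, were 3' ends. From 5' ends alone the WT scores were 0.103, 0.0424 and 0.117. In the knockout the scores were 0, 0.240 and 0, in siNT 0.0724, 0.128 and 0.132, and in siDHX15 0.466, 0.0418 and 0.0413. Single libraries of the knockout and of siDHX15 thus stood apart from the rest of their group. All siNT libraries lay above all WT libraries, as they did at 17.7% of the 141 listed sites (and below at 4.26%), but the difference of 0.111 (SE 0.106) did not pass the test (adjusted p = 0.831).

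Um2043 was the other site near 0. Its scores were 0.186, 0.197 and 0.139 in WT, 0.0134, 0 and 0.127 in the knockout, 0.0288, 0.232 and 0.0670 in siNT and 0, 0 and 0.143 in siDHX15. All knockout libraries lay below all WT libraries, with a difference of -0.127 (SE 0.0593) that did not pass the test (adjusted p = 0.166). From read 5' ends alone the score was 0 in all 12 libraries, and from 3' ends alone it was between 0.0498 and 0.630.

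**Figure D2:**
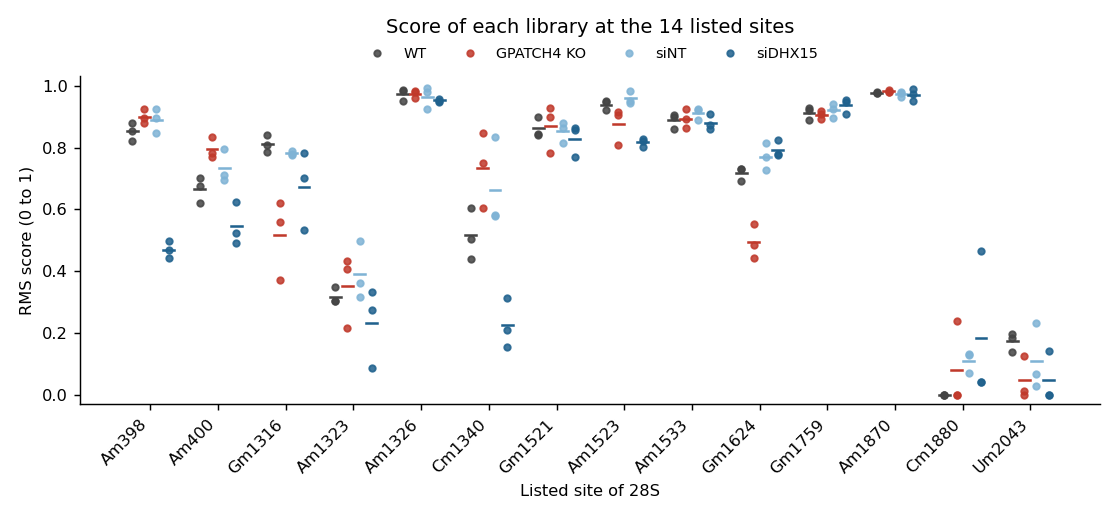
Each point is the RMS score (no unit, 0 to 1) of 1 library at 1 of the 14 listed sites, coloured by group, and each short line is the mean of 3 replicates. The siDHX15 points at Am398 and Cm1340 and the knockout points at Gm1624 lie apart from those of the other groups.

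The comparison of the knockout with WT asks which of these sites depend on GPATCH4. Gm1624 and Gm1316 had lower scores in the knockout and Am400 a higher one, while the other 11 sites did not pass the test (limma, Benjamini-Hochberg adjusted p under 0.05). Lower calls were made at 2 of the 14 sites, or 14.3%, where 24.8% of all 141 listed sites and 24.1% of those in the rest of 28S were called lower. One of the 14 was called higher, which was also the only such call among the 141 (0.709%). The median difference was 0.00494 over the 14 sites and -0.00607 over all 141. The median deviation over all sites was also subtracted from each library (centring), which raised every knockout minus WT difference by the same amount. The calls in the region were then 2 lower and 3 higher. Over all 141 sites they were 33 lower and 13 higher against 35 and 1 without centring.

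Gm1624, the target of SNORD80, fell furthest beyond its spread. Its scores were 0.732, 0.732 and 0.692 in WT and 0.484, 0.553 and 0.444 in the knockout. In siNT they were 0.769, 0.815 and 0.728, and in siDHX15 0.824, 0.777 and 0.780. The knockout libraries lay below all 9 libraries of the other groups. The knockout minus WT difference was -0.225 (SE 0.0313, adjusted p = 0.000271), from 0.719 ± 0.0229 to 0.494 ± 0.0551 (SD, n = 3). From 3' ends alone the call was lost, with a difference of -0.197 and an adjusted p of 0.0812.

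Gm1316 scored 0.810, 0.787 and 0.840 in WT and 0.370, 0.560 and 0.619 in the knockout. Groups were apart, with a wide spread among the knockout libraries. The difference was -0.296 (SE 0.0697, adjusted p = 0.00909), from 0.812 ± 0.0264 to 0.517 ± 0.130. In siNT the scores were 0.777, 0.788 and 0.780 and in siDHX15 0.532, 0.784 and 0.702, so that siDHX15 overlapped siNT at 1 library. The call in the knockout was lost from 5' ends alone (-0.321, adjusted p = 0.0627) and with the library index of the file headers as a block (-0.245, adjusted p = 0.180). Gm1521, which shares GACCCG with Gm1316, scored 0.862 ± 0.0331 in WT and 0.870 ± 0.0767 in the knockout (difference 0.00862, SE 0.0405, adjusted p = 0.940).

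Am400, the target of SNORD81, rose in the knockout. Its scores were 0.620, 0.677 and 0.701 in WT and 0.769, 0.834 and 0.784 in the knockout, without overlap. The difference was 0.129 (SE 0.0395, adjusted p = 0.0368). This call was the least stable of the 3. It was lost in edgeR (adjusted p = 0.0535), on the logit scale (0.0703), from 5' ends alone (a difference of 0.0353), from 3' ends alone (0.115), with the index of the library as a block (a difference of 0.0484) and without any 1 of WT replicate 1, WT replicate 2, knockout replicate 2, knockout replicate 3 or siNT replicate 2 (adjusted p from 0.0511 to 0.133).

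Am1523 and Cm1340 had an unadjusted p under 0.05 in this comparison but did not pass after adjustment. Am1523 passed in edgeR (adjusted p = 0.0436), and Cm1340 with centred libraries (0.0465), without knockout replicate 3 (0.0399) or without siNT replicate 1 (0.0416). At Am1523 the scores were 0.949, 0.922 and 0.946 in WT and 0.914, 0.905 and 0.809 in the knockout, again without overlap (difference -0.0632, SE 0.0267, adjusted p = 0.130). Cm1340 scored 0.439, 0.504 and 0.604 in WT and 0.846, 0.749 and 0.604 in the knockout, where the third knockout library reached down to the third WT library (difference 0.217, SE 0.0838, adjusted p = 0.0915). Knockout libraries lay wholly below WT at 4 sites, Gm1316, Am1523, Gm1624 and Um2043, and wholly above it at 2, Am400 and Am1870. Over all 141 sites such separation was found below WT at 31.2% and above it at 7.09%.

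The comparison of siDHX15 with siNT asks which sites depend on DHX15. Scores were lower at Am398, Cm1340, Am400 and Am1523, and no site was called higher. These 4 of 14 sites are 28.6%, against 31.2% of all 141 listed sites and 40.7% of those in the rest of 28S. The median difference was -0.0467 over the 14 sites and -0.0569 over all 141. Centring the libraries, which raised every siDHX15 minus siNT difference by the same amount, gave 3 lower and 2 higher calls in the region. Over all sites it gave 27 lower and 15 higher calls against 44 and 0. With every library thinned to the 875096 read ends of the shallowest one, the same 4 sites were called.

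Am398, the target of SNORD26, changed the most relative to its spread. Its scores were 0.895, 0.847 and 0.924 in siNT and 0.444, 0.497 and 0.469 in siDHX15. WT libraries were at 0.822, 0.854 and 0.881 and knockout libraries at 0.895, 0.880 and 0.925. The siDHX15 libraries thus stood apart from all 9 others. The difference was -0.419 (SE 0.0251, adjusted p = 1.20e-06), from 0.889 ± 0.0388 to 0.470 ± 0.0267 (SD, n = 3).

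Am400 lies 2 nt away from Am398 and was lower too, by less. It scored 0.794, 0.710 and 0.697 in siNT and 0.623, 0.493 and 0.523 in siDHX15, without overlap. The difference was -0.188 (SE 0.0395, adjusted p = 0.00409), and from 3' ends alone it did not pass (-0.152, adjusted p = 0.108). From 5' ends alone it was -0.351 (adjusted p = 0.0456), and with centred libraries -0.119 (adjusted p = 0.0402). These sites are neighbours of each other in the score. Leaving listed positions out of the neighbour mean changed neither call.

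Cm1340, the target of SNORD104, had the largest difference of the region. It scored 0.834, 0.582 and 0.578 in siNT and 0.156, 0.313 and 0.212 in siDHX15. All siDHX15 libraries were below all 9 others, while siNT replicate 1 was well above the rest of its group. The difference was -0.437 (SE 0.0838, adjusted p = 0.00237), from 0.664 ± 0.147 to 0.227 ± 0.0796. With the library index as a block it was -0.315 and no longer passed (adjusted p = 0.0975), but siNT and siDHX15 share no index.

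At Am1523 the score was 0.983, 0.946 and 0.951 in siNT and 0.829, 0.821 and 0.801 in siDHX15, with little spread in either group. The difference of -0.143 (SE 0.0267, adjusted p = 0.00214) was lost from 3' ends alone (-0.0887, adjusted p = 0.483) and with centred libraries (-0.0741, adjusted p = 0.0720). Gm1521, 2 nt before it, scored 0.853 ± 0.0334 in siNT and 0.829 ± 0.0528 in siDHX15 and did not pass (difference -0.0236, SE 0.0405, adjusted p = 0.740). Am1533, 10 nt after Am1523, did not pass either (difference -0.0317, SE 0.0219, adjusted p = 0.332).

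Am1323 scored 0.497, 0.362 and 0.317 in siNT and 0.333, 0.276 and 0.0859 in siDHX15, with overlap. Its difference of -0.160 (SE 0.0754) did not pass (adjusted p = 0.137). Same-numbered siNT and siDHX15 libraries correlated weakly in their deviations from the group means, and libraries of different number correlated as much in some cases. With the replicate number as a block, Am1323 passed (adjusted p = 0.0344). Its neighbour Am1326 stayed above 0.9 in all 12 libraries, with a difference of -0.0128 (SE 0.0196, adjusted p = 0.695). Groups did not overlap at the 4 called sites and at no other, which is 4 of 14 with siDHX15 below siNT, against 44% of all 141 sites.

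**Figure D3:**
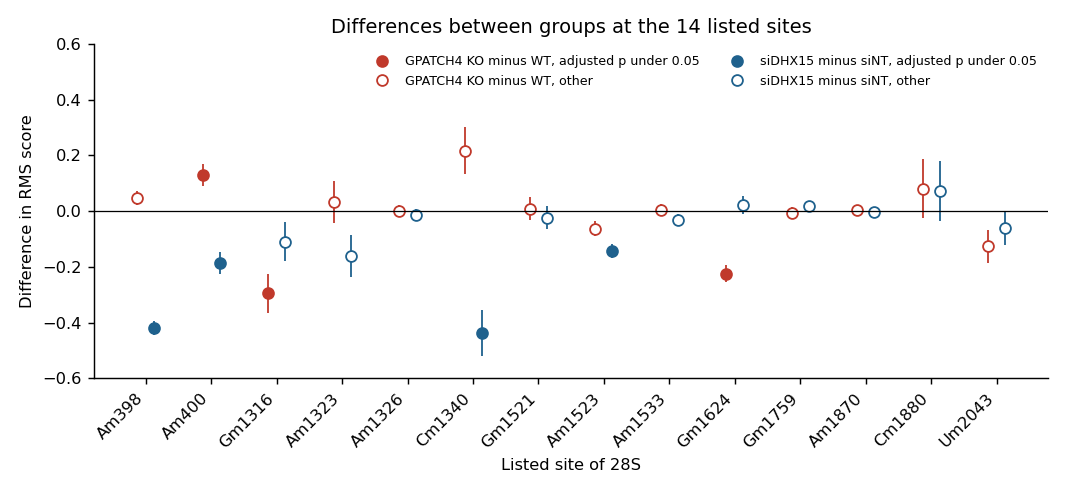
Each point is the difference in mean RMS score (no unit) between a treated group and its control at 1 listed site, and each line spans 1 standard error from the limma fit on either side. Filled points passed the adjusted threshold of 0.05. Am400 is filled in both comparisons, above 0 for the knockout and below 0 for siDHX15.

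The called sites differed between the comparisons, and the difference itself was tested as knockout minus WT less siDHX15 minus siNT. It passed at 4 of the 14 sites. Am398 differed by 0.467 (SE 0.0355, adjusted p = 6.34e-06), Cm1340 by 0.655 (SE 0.119, adjusted p = 0.00142) and Am400 by 0.317 (SE 0.0559, adjusted p = 0.00125), so that all these scores were lower after DHX15 depletion relative to the knockout effect. Gm1624 differed the other way, by -0.248 (SE 0.0443, adjusted p = 0.00133). From 5' ends alone the difference of effects was 0.246 at Am398 (adjusted p = 0.0879) and 0.386 at Am400 (adjusted p = 0.102), so both calls were lost, and 0.410 at Cm1340 (adjusted p = 0.0115). The call at Gm1624 was lost from 3' ends alone (-0.249, adjusted p = 0.119). Of all 141 sites, 20.6% passed in the first direction and 17% in the other. At Gm1316 the difference of effects was -0.186 (SE 0.0986, adjusted p = 0.177) and at Am1523 0.0801 (SE 0.0378, adjusted p = 0.135), so neither passed in the main fit. Am1523 passed from 5' ends alone (0.139, adjusted p = 0.000807) and without knockout replicate 3 (0.114, adjusted p = 0.00526). Gm1316 passed without siDHX15 replicate 1 (-0.256, adjusted p = 0.0439). In no other alternative did either site pass. The knockout and the knockdown were each set against their own controls, at different depth.

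WT and siNT, the untreated and the transfected control, differed at none of the 14 sites in limma, at an adjusted p under 0.05 or at an unadjusted one. In edgeR 0 sites passed and 1 had an unadjusted p under 0.05. Calls were 0% of the 141 sites in either direction. The largest difference in size was 0.149 (SE 0.0838, adjusted p = 0.730), at Cm1340, which is also the site with the widest spread in siNT. With the WT values that the authors recalculated, it was -0.0351 (adjusted p = 0.928).

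Read 5' and 3' ends carry the same cut from either side and were compared at each site. Group means from the 2 kinds of end lay within 0.1 of each other in all 4 groups at 4 of the 14 sites, Am1326, Am1533, Gm1759 and Am1870, and farther apart in at least 1 group at the other 10. At 4 sites 3' ends made up far more than the region's even share, with 90.3% at Am398, 87.3% at Cm1340, 83.3% at Cm1880 and 78.3% at Am400. In siDHX15 the score of Am398 was 0.711 ± 0.173 from 5' ends and 0.432 ± 0.0165 from 3' ends, against 0.965 ± 0.0599 and 0.881 ± 0.0347 in siNT. Both kinds of end thus gave a lower mean in siDHX15, and siDHX15 minus siNT passed with each of them alone. From 5' ends alone the difference was -0.255 (adjusted p = 0.0208). The main fit, which combines both kinds of end, gave -0.419. The number of 5' ends at Am398 was small, from 0 to 2 in siNT and from 2 to 57 in siDHX15.

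At Cm1340 the mean score in WT was 0.737 ± 0.113 from 5' ends and 0.457 ± 0.0717 from 3' ends. In the knockout the values were 0.794 ± 0.0669 and 0.719 ± 0.138, so WT and the knockout were closer by 5' ends. The authors recalculated this site in WT replicates 1 and 3, to 0.751 and 0.843, which equal the scores from 5' ends alone. Their deposited overview therefore gives a WT mean of 0.699, against 0.516 from both kinds of end, while the means of the other groups were left at both. With those values the knockout minus WT difference was 0.0338 (adjusted p = 0.947) in place of 0.217. The difference of effects was then 0.471 (adjusted p = 0.0270) in place of 0.655. Am1323 was the opposite case, with 0.184 ± 0.0528 from 5' ends and 0.602 ± 0.212 from 3' ends in WT.

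**Figure D4:**
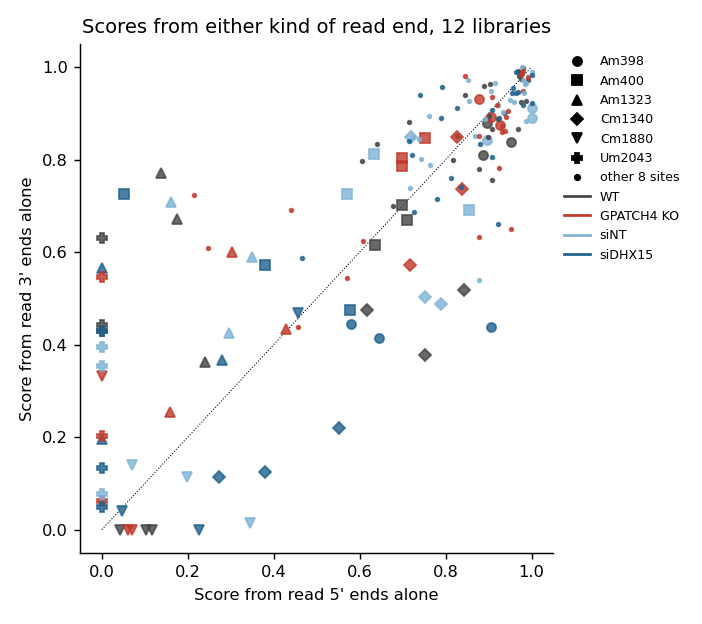
Each mark is the score of 1 library at 1 listed site, computed from read 5' ends alone (horizontal axis) and from 3' ends alone (vertical axis), both from 0 to 1 without unit. Shapes mark 6 sites, dots the other 8 and colours the groups, and the dotted line marks equal scores. The Um2043 marks stand at 0 on the horizontal axis in all 12 libraries.

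The listed sites were unevenly spread. No site is listed before Am398, in the 915 nt from 401 to 1315, between Am400 and Gm1316, which is the longest gap between listed sites, or in the 257 nt from 2044 to 2300. G and C made up 81.6% and 82.1% of the latter stretches, against 62.0% of positions 1 to 400 and 60.3% of positions 1316 to 2043, which hold 12 of the 14 sites. The 915 nt make up 18.1% of the length of 28S but held only 6.05% to 8.07% of its read ends, with a median of 7.03%. In WT the share was 7.95%, 7.62% and 6.13%, in the knockout 7.55%, 6.79% and 6.58%, in siNT 6.05%, 7.11% and 6.26% and in siDHX15 7.08%, 8.07% and 6.98%. All 4 groups overlapped, and the share was low in every library.

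Read ends per position in the gap were 0.389 of the mean of 28S by the median library, against 1.37 in positions 1316 to 2043. Across the 23 windows of 100 nt, the percentage of G and C and this relative number had a Pearson r of -0.934 and a Spearman rho of -0.914. The windows come from the same libraries and are not independent, so this is a description. The part of base composition in the low number of read ends was not tested. A methylated nucleotide is harder to see where there are few ends, and 578 of the 915 positions of the gap had a neighbour mean of at least 20 in every library, against 713 of the 716 unlisted positions from 1316 to 2043.

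The unlisted positions show how the same score behaves where no methylation is listed. Of the 2286, 2280 had all their neighbours. Their median score was between 0.0314 and 0.104 per library, and between 40.0% and 46.5% of them were at 0. Cm1880 and Um2043, with medians of 0.0415 and 0.0972, lay in the range of these medians. No unlisted position reached 0.75 in all 12 libraries, whereas 6 listed sites did. A score of at least 0.5 in all 12 libraries was found at 10 unlisted positions, 9 of them in the gap from 401 to 1315, and 5 of the 10 had a neighbour mean of at least 20 throughout.

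The 5 unlisted positions with the highest lowest score were C628, C571, A660, C1167 and U573, all in the gap. C628 scored from 0.683 to 0.938 with a median of 0.840, where its neighbour mean fell to 13.4 read ends in the shallowest library. C571 scored from 0.608 to 0.886, A660 from 0.587 to 0.797, C1167 from 0.577 to 0.974 and U573 from 0.556 to 0.882. Of the 5, A660 and C1167 kept a neighbour mean of at least 20 in every library, at 33.5 and 20.6. Group means of C628 were 0.774 in WT, 0.836 in the knockout, 0.866 in siNT and 0.852 in siDHX15, and those of A660 were 0.661, 0.695, 0.751 and 0.759. A high score at these positions shows few read ends relative to the neighbours, and a methyl group there was not tested.

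**Figure D5:**
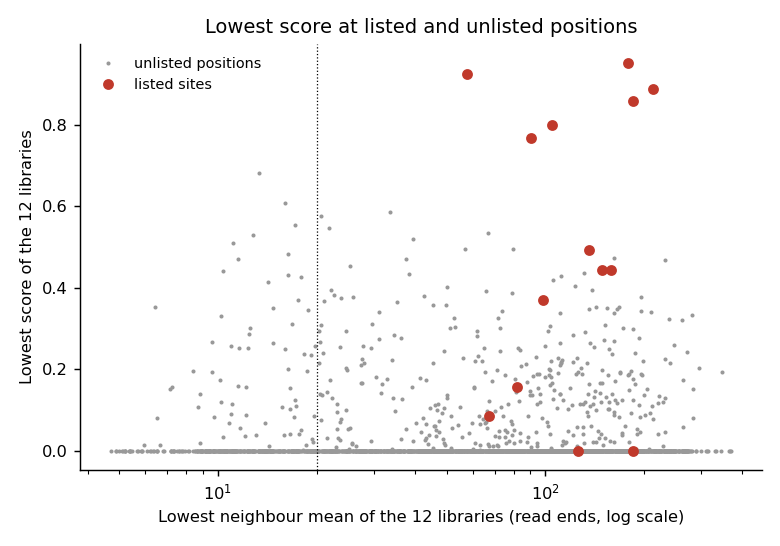
Each point is 1 position of 28S 1 to 2300, with its lowest neighbour mean over the 12 libraries (read ends, log scale) on the horizontal axis and its lowest RMS score (no unit) on the vertical axis. The dotted line marks 20 read ends. Listed sites (red) with a lowest score of 0.75 or more stand above all unlisted positions (grey).

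The 1875 unlisted positions with enough read ends were tested as the log2 ratio of their read ends to the neighbour mean. Between the knockout and WT 0 passed in limma and 74, or 3.95%, had an unadjusted p under 0.05. Between siDHX15 and siNT 0 passed and 64, or 3.41%, had such a p. Calls were also 0% of the 6387 unlisted positions tested over all RNAs. This test has limited power. Of 200 positions changed 2-fold up or down in simulated data, it recovered 125 for the knockout and 116 for siDHX15, with 3 and 9 false calls. The spread between simulated libraries was set in advance and not estimated from these data, so the power in these data can be lower. In a limma fit of listed and unlisted positions together on this scale, the knockout calls at Gm1316 and Gm1624 were lost too (adjusted p = 0.131 and 0.537). The 0 calls therefore do not show that unlisted positions were unchanged. Within 6 nt of a listed site, 124 positions were tested, of which 4 and 2 had an unadjusted p under 0.05. On this scale the differences lay between -0.924 and 1.08 in the knockout and between -1.01 and 0.893 in siDHX15.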

How the data were processed

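RiboMeth-seq libraries of 12 cultures, 3 for each of 4 groups, were analysed from tables with 1 entry per position. Per the file headers, the authors deposited raw counts of the 5' and 3' ends of reads and, for each replicate, a score that is a fraction. The tools cutadapt 2.0 and Bowtie2 2.3.4.1 and the build hg38 are listed, per the submitters' processing notes, without their roles. The deposited score was recomputed as 1 minus the ends at a position over the weighted mean of 6 neighbours each side, with negative values set to 0, and equalled the file at all 8044 positions with complete neighbours (tolerance 1e-08).

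The fit of the scores used limma 3.58.1 (R 4.3.3, 4 group means, two-sided, Benjamini-Hochberg adjustment over 141 sites, threshold 0.05). At 8 snRNA sites outside the region the deposited recalculated score was used, and at Cm1340 the score from both kinds of end. Unlisted positions with a neighbour mean of at least 20 in every library were fitted as log2((ends + 1)/(neighbour mean + 1)) over 6387 positions. An edgeR 4.0.16 quasi-likelihood fit of the counts, with the neighbour mean as offset, covered the 133 other sites. Both limma fits were tested on simulated data with known changes.

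Deviations of same-numbered siNT and siDHX15 libraries from their group means correlated weakly (r = 0.117, 0.160 and 0.166 across sites). The number was therefore used as a block in an alternative fit only. Deviations from a group's own mean are tied to each other, so these r are not independent. The labels do not state a pairing, and libraries of different number had r from -0.301 to 0.15, so a pairing is not established. Alternatives are given at the end. All listed sites were named, and the 5 unlisted positions with the highest lowest score. Members and lists were chosen with earlier results of these data known. Counts without molecular identifiers are not independent molecules.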

Additional observations from a re-analysis of the deposited data

Results flagged for a closer look

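The effect of the knockout and the effect of DHX15 depletion differed at 4 of the 14 listed sites, by the interaction in the limma fit over all 141 sites. Of all 141 sites, 20.6% passed with a positive difference and 17% with a negative one, so such calls are not particular to this region. At Am398 the difference of effects was 0.467, from effects of 0.0478 in the knockout and -0.419 in siDHX15, where all 3 siDHX15 libraries lay below all siNT libraries. From 5' ends alone it was 0.246 and not called (adjusted p = 0.0879). It was 0.655 at Cm1340, from effects of 0.217 and -0.437, and 0.471 with the deposited recalculated WT values. At Am400 it was 0.317, from 0.129 and -0.188, with the groups apart in both comparisons and in opposite directions, and it was not called from 5' ends alone (adjusted p = 0.102). Gm1624 had the opposite sign, -0.248, from -0.225 and 0.0227, with the knockout libraries below WT and the siDHX15 libraries overlapping siNT, and it was not called from 3' ends alone (adjusted p = 0.119).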

How the results depend on the processing

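Of the results for single sites, 1490 kept their side of the threshold under an alternative, 29 lost a call, 14 gained one and 1 reversed. Among the 1490, 79 took the other sign, and none of these was called with or without the alternative. The reversal was Am1870 in siDHX15, which went from -0.00211 to a called 0.0670 (adjusted p = 0.00559) when libraries were centred. Centring raised every siDHX15 minus siNT difference by the same amount, and this common shift gave the new sign. Counts of called sites stayed within 1.5 times the main count in 135 cases and moved in 8. For the knockout, 3 called sites became 5 with centred libraries, 1 from 5' ends alone, 1 from 3' ends alone, 1 with the library index as a block and 0 when listed and unlisted positions shared a fit. For siDHX15, 4 became 2 from 3' ends alone and 2 in that shared fit, and for the difference of effects 4 became 1 in the shared fit. Over all listed sites the knockout calls, 35 lower and 1 higher in the main fit, became 35 and 0 from 5' ends alone. They became 26 and 0 from 3' ends alone (136 sites tested) and 29 and 0 with the index block. The siDHX15 calls, 44 lower and 0 higher, became 20 and 0 from 3' ends alone. The index block compared each treated group with its control only through the other groups, because they share no index. The shared fit and the recalculated values were added after seeing the data. Without one library at a time, called sites numbered 2 to 4 for the knockout, 4 to 4 for siDHX15, 4 to 5 for the difference of effects, 0 to 0 for siNT minus WT and 0 to 0 at unlisted positions. The replicate block gave 2 called sites for the knockout, where Am400 was lost (adjusted p = 0.0662), and 5 for siDHX15, where Am1323 was gained; it changed no other call in these comparisons. For WT and knockout libraries of the same number, the r of these deviations was 0.12, 0.0459 and -0.000863. With 2 neighbours a side, Am1323 was called in siDHX15 (-0.213, adjusted p = 0.000513). Apart from the common shift by centring, the cause of these changes was not tested. Depth limits the siRNA groups most, where neighbour means at the sites fell to 57.7 read ends.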
